A study of Mus musculus with 12 samples.

Results

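The 10 genes described here are 3 of fusion (Opa1, Mfn1 and Mfn2), 4 of fission (Dnm1l, Fis1, Mff and Mief1) and 3 of mitophagy (Pink1, Bnip3l and Fundc1). They were chosen by name for their roles, with earlier results of these data known, and all 10 were found by symbol among the 15113 genes of the count table. Mitochondria join by fusion and divide by fission, and damaged ones are removed by mitophagy, the selective form of autophagy. In fusion the mitofusins join outer membranes and OPA1 joins inner membranes. In fission the dynamin DRP1 is drawn from the cytosol by outer membrane adaptors and constricts the organelle. Mitophagy runs either through the kinase PINK1, whose protein builds up on mitochondria that have lost their membrane potential and which marks them with phosphorylated ubiquitin, or through receptors such as NIX and FUNDC1 that bind the autophagosome directly.

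RNA was sequenced from C2C12 cells, a mouse myoblast line that fuses into contractile myotubes when serum is withdrawn, after differentiation into myotubes. One group of 6 libraries came from myotubes treated for 16 h with 20 μM BAM15 dissolved in DMSO, a protonophore that carries protons across the inner mitochondrial membrane and so uncouples respiration from ATP synthesis. The other 6 libraries came from myotubes given the DMSO vehicle for the same time. No gene was altered in either group. The labels do not say whether the libraries of a condition came from separate cultures, so p-values measure only the spread between these libraries, and a line is a single cell population grown in vitro.

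Libraries were made by 3′ QuantSeq, which primes from the poly(A) tail, and held 13983725 to 18866728 counted reads. Normalized counts are counts scaled by the library sizes and TMM factors. Genes were called when edgeR's quasi-likelihood test gave a Benjamini-Hochberg adjusted p below 0.01 over the 12730 tested genes. At this threshold 42.3% of all tested genes were called, 22% higher and 20.3% lower after BAM15. Of 10 myotube markers all were detected, with a summed level of 18651 to 22362 CPM (counts scaled to library size) in BAM15 and 19163 to 21148 in vehicle libraries. Of these markers, 2 were called higher (Acta1, log2 fold change 0.46, and Myog, 0.37) and 2 lower (Mymk, −0.27, and Ckm, −0.17). Acta1 had the highest counts of them and so weighs most in the sum. Des (−0.49, adjusted p = 0.0130, edgeR) and Myh1 (−0.31, adjusted p = 0.0118, edgeR) were among those not called. The 6 markers of undifferentiated or proliferating myoblasts summed to 127 to 153 CPM after BAM15 and 277 to 329 with vehicle, and 4 of them (Pax7, Mki67, Top2a and Ccna2) were called lower while Myf5 was called higher. The part of these marker changes in the results below was not tested. The 4 adipocyte markers and the osteoblast markers Sp7 and Ibsp were not among the listed genes, and Bglap was too low to test. In RNA from whole lysates, fewer cells of a kind and less RNA per cell cannot be told apart. Within BAM15, the libraries numbered 4 to 6 stood apart from those numbered 1 to 3, and the values by number set are given for the named genes that differed between these sets.

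Fis1 and Bnip3l were called lower after BAM15, none was called higher, and the remaining 8 did not pass the threshold, so that 20% of these genes were called against 42.3% of all tested genes. At an unadjusted p below 0.05 in edgeR, 1 was higher and 3 were lower, and at an adjusted p below 0.05 a total of 4 were called, against 54.1% of tested genes. The log2 fold change was negative for 7 of the 10 and for 47.8% of all tested genes. DESeq2 and limma-voom each called 0 higher and 3 lower. The shares of all tested genes called by these 2 tests are not given here, and the 42.3% belongs to edgeR. None changed by more than 2-fold, and 0 of the 10 therefore passed the 3 thresholds of the study (adjusted p below 0.01, mean normalized count above 50 and a change of more than 2-fold), which 7.28% of tested genes passed. The median size of the log2 fold change, without regard to sign, was 0.12 over the 10 genes and 0.32 over all tested genes, and 7 of the 10 lay below that median. The mean normalized counts of the 10 genes ran from 447 to 2407 against a median of 331 over tested genes. The standard errors of their log2 fold changes ran from 0.06 to 0.11 against a median of 0.11. The part of depth in the share called was not tested. For the 8 genes that were not called, the 95% intervals lay between −0.58 and 0.32, within less than 2-fold in either direction.

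**Figure D1:**
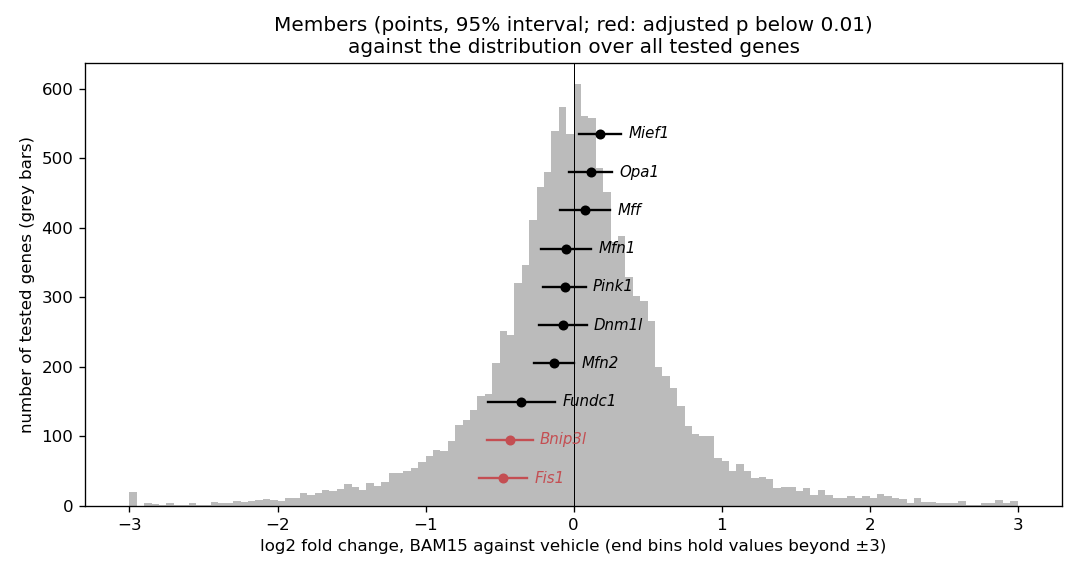
The grey bars count all tested genes by their log2 fold change between BAM15 and vehicle, and each point is one of the 10 genes with its 95% interval, red where the adjusted p was below 0.01. Fis1 at −0.48 and Bnip3l at −0.43 are the red points, and the other genes lie between −0.35 (Fundc1) and 0.18 (Mief1).

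Among the fusion genes, none of the 3 was called. Opa1 (ENSMUSG00000038084, chromosome 16, 29579334 to 29654884 on GRCm38) encodes the dynamin-like GTPase that fuses inner membranes and shapes cristae. Its normalized counts had a lowest, median and highest value of 872, 955 and 1039 with vehicle and of 938, 1005 and 1161 after BAM15. The groups overlapped, and the 2 highest values were BAM15 libraries 1 and 2. The log2 fold change was 0.12 (standard error, SE, 0.07, 95% interval −0.03 to 0.26, edgeR, Benjamini-Hochberg adjusted p = 0.170).

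Mfn1 (ENSMUSG00000027668, chromosome 3, 32529465 to 32579239) and Mfn2 (ENSMUSG00000029020, chromosome 4, 147873599 to 147904704) encode the mitofusins, the outer membrane GTPases that tether and fuse mitochondria. Mfn1 had 734, 856 and 889.7 normalized counts (lowest, median, highest) with vehicle and 713, 796 and 981 after BAM15, so the BAM15 libraries spread to both sides of the vehicle libraries. Its log2 fold change was −0.05 (SE 0.08, interval −0.22 to 0.12, adjusted p = 0.616, edgeR). Mfn2 had 1249, 1314 and 1494 with vehicle and 1113, 1189.5 and 1331 after BAM15. All 6 BAM15 libraries lay below the vehicle mean of 1333, but the groups overlapped, and the log2 fold change of −0.13 was not called (SE 0.06, interval −0.27 to 0.00, adjusted p = 0.0908, edgeR).

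The promoter windows of 2 of these genes and of 1 further mitophagy receptor gene are shown because they are the genes around which the results below turn, Opa1 as a gene that was not called and Fis1 and Bnip3 as genes that were lower. They are RefSeq sequences of GRCm38.p6, from 250 bases before to 50 bases after the annotated start, given 5′ to 3′ on the strand of the gene, at chr16:29579084-29579383 (+) for Opa1, chr5:136953025-136953324 (+) for Fis1 and chr7:138909457-138909756 (−) for Bnip3. Capitals mark matches to the searched motifs.
Opa1: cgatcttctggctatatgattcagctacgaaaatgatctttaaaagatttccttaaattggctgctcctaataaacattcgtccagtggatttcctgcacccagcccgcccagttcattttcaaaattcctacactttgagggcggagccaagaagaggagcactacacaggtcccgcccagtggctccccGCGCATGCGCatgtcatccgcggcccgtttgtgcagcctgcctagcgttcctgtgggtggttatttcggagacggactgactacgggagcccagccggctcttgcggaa
Fis1: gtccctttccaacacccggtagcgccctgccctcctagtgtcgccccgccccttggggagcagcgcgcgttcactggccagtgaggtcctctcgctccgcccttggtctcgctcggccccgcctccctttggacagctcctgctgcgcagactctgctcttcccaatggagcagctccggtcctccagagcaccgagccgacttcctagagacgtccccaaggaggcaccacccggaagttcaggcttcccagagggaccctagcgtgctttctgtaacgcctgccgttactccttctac
Bnip3: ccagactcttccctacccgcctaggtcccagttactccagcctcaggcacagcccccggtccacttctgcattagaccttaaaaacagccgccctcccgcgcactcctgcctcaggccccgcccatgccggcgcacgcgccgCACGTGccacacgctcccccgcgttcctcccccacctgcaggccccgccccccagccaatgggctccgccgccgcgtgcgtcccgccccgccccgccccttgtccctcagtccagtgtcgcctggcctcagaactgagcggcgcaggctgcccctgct
Of the 10 genes, 9 had an entry (all but Bnip3l), with 14 windows in all. Both strands were searched for the consensus of NRF1 (its letters are the capitals in the Opa1 window), CACGTG (the E-box bound by TFEB and by MYC family factors), TGATGNAA (the core of the C/EBP-ATF response element), TGTTTAC (forkhead factors), TGACCTTG (estrogen-related receptors) and TATAAA (the TATA box), and no overlapping matches were found in the windows shown. The only match in the 14 windows was the NRF1 consensus in Opa1, beginning at −59 relative to the start, a motif held by 0.971% of the 32851 promoter windows of the annotation. The window of Bnip3 held CACGTG, beginning at −108, which 7.15% of all windows hold. The other motifs were held by 3.97% (TGATGNAA), 3.65% (TGTTTAC), 1.56% (TGACCTTG) and 13.6% (TATAAA) of windows. A match describes these letters only and is not evidence of binding.

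Of the fission genes, Fis1 was lower and the DRP1 gene and its other adaptors were not called. Fis1 (ENSMUSG00000019054, chromosome 5, 136953275 to 136966234) encodes a small outer membrane protein that can bind DRP1 and its regulators. It had 1553, 1633 and 1772 normalized counts (lowest, median, highest) with vehicle and 1007, 1181 and 1399 after BAM15. Every BAM15 library lay below every vehicle library. The groups were separate in this way for 34.2% of all tested genes, with BAM15 higher for 17.1% and lower for 17%. The mean fell from 1643 ± 80.8 to 1181 ± 149 (SD, n = 6), a log2 fold change of −0.48 (SE 0.08, interval −0.64 to −0.31, edgeR, Benjamini-Hochberg adjusted p = 9.11e-05). The call held in each of the 23 alternatives, with log2 fold changes of −0.59 to −0.40.

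Dnm1l (ENSMUSG00000022789, chromosome 16, 16312230 to 16358959) encodes DRP1, the dynamin that carries out division. Its 1223, 1285 and 1368 normalized counts with vehicle enclosed the middle of the BAM15 values of 1040.2, 1231 and 1406, and the log2 fold change was −0.07 (SE 0.08, interval −0.23 to 0.09, adjusted p = 0.443, edgeR). Both the highest and the lowest of all 12 libraries were BAM15 libraries. Mff (ENSMUSG00000026150, chromosome 1, 82724890 to 82752394), which encodes the main adaptor that recruits DRP1, had 1333, 1469 and 1606 normalized counts with vehicle and 1318, 1473 and 1794 after BAM15. Its log2 fold change was 0.08 (SE 0.08, interval −0.09 to 0.24, adjusted p = 0.421, edgeR), and the 2 highest values were BAM15 libraries 5 and 6. Mief1 (ENSMUSG00000022412, chromosome 15, 80234018 to 80253371) encodes MiD51, a further DRP1 adaptor. It had 388, 422 and 449 normalized counts with vehicle and 436, 471 and 542 after BAM15. All 6 BAM15 libraries lay above the vehicle mean of 420 ± 22.1 (SD, n = 6), yet the log2 fold change of 0.18 was not called (SE 0.07, interval 0.04 to 0.32, adjusted p = 0.0318, edgeR).

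Of the mitophagy genes, Bnip3l was lower and Pink1 and Fundc1 were not called. The kinase gene Pink1 (ENSMUSG00000028756, chromosome 4, 138313409 to 138326307) had 2227, 2448 and 2756 normalized counts with vehicle and 2175, 2346 and 2569 after BAM15, with overlapping groups. Its log2 fold change was −0.06 (SE 0.07, interval −0.20 to 0.08, adjusted p = 0.468, edgeR). These are levels of the transcript, whereas the control of PINK1 by membrane potential known from other work acts on the protein, which was not measured here. Bnip3l (ENSMUSG00000022051, chromosome 14, 66985239 to 67008877) encodes NIX, the outer membrane receptor known for clearing mitochondria from maturing red blood cells. It had 900.0, 950.1 and 1067 normalized counts with vehicle and 630.1, 711 and 833 after BAM15, so that the groups did not overlap. The mean fell from 974 ± 74.0 to 723 ± 67.4 (SD, n = 6), a log2 fold change of −0.43 (SE 0.07, interval −0.58 to −0.28, edgeR, Benjamini-Hochberg adjusted p = 1.29e-04). This was larger than the change of 61.1% of tested genes. Without libraries 1 to 3 of both conditions the log2 fold change was −0.36 with an adjusted p of 0.0148 in edgeR, so that the call was lost, and without libraries 4 to 6 it was −0.51 (adjusted p = 6.58e-06, edgeR).

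Fundc1 (ENSMUSG00000025040, chromosome X, 17556564 to 17572325), whose product is a receptor linked to mitophagy under low oxygen, lay at the threshold. It had 457, 548 and 598 normalized counts with vehicle and 315, 424 and 501 after BAM15. All 6 BAM15 libraries were below the vehicle mean, and the 3 lowest were numbers 1 to 3. The log2 fold change was −0.35 (SE 0.11, interval −0.58 to −0.13) with an adjusted p of 0.0110 in edgeR, and it was past the threshold in 10 of 23 alternatives, among them DESeq2 (0.00513), limma-voom (0.00979) and the fits without BAM15 library 5 (0.00268), BAM15 library 6 (0.00939) or vehicle library 5 (0.00755). In numbers 1 to 3 its log2 fold change was −0.54 (edgeR adjusted p = 1.01e-04), against −0.20 in numbers 4 to 6 (adjusted p = 0.163, edgeR). The adjusted p of the difference between these changes was 0.170 (edgeR). For none of the 10 genes does a stretch of 50 bases near the 3′ end of the transcript (within 400 bases) recur in another gene, and no exon of another gene lies over it on either strand.

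**Figure D2:**
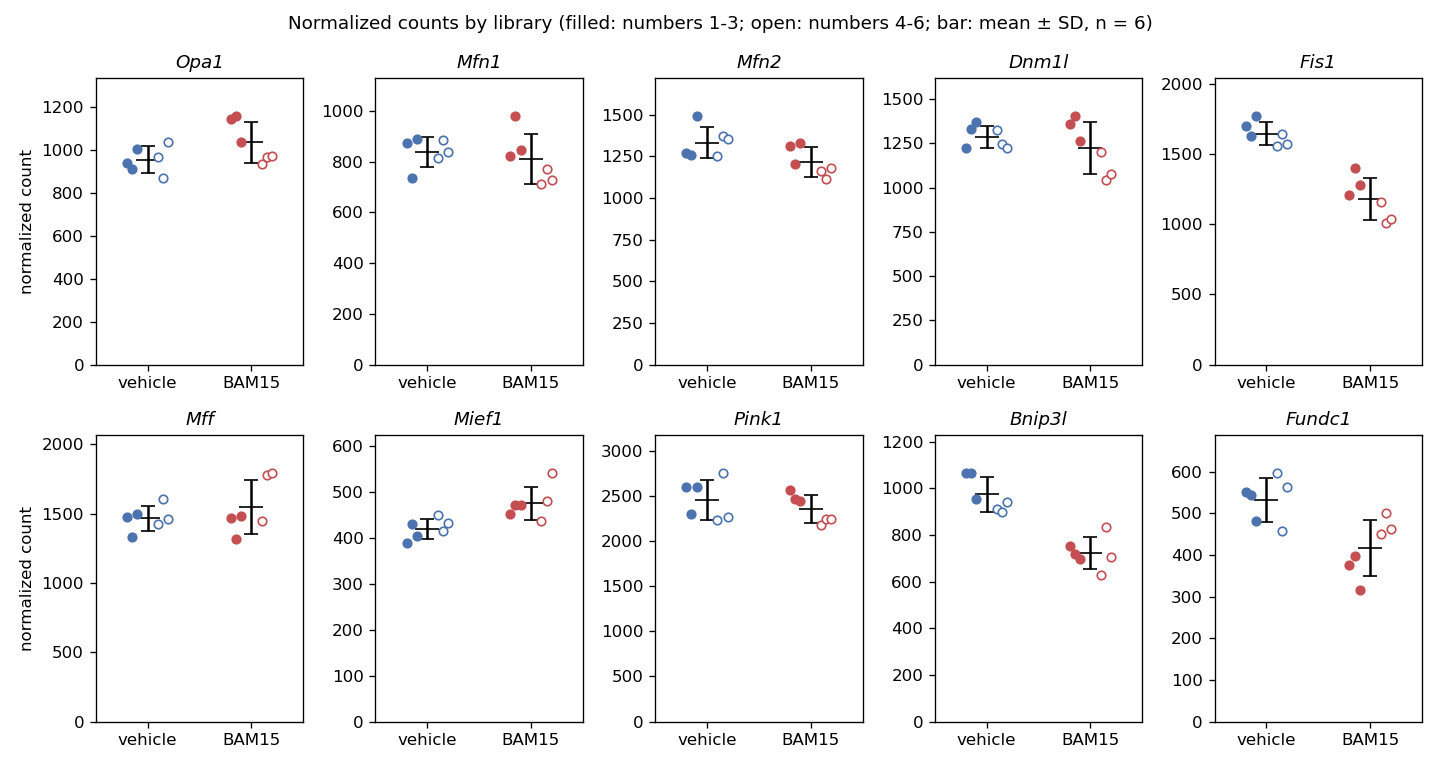
Each panel gives the normalized counts of 1 gene in the 6 vehicle (blue) and 6 BAM15 (red) libraries on an axis from 0, with filled points for library numbers 1 to 3, open points for numbers 4 to 6 and a bar for the mean ± SD. The groups are separate for Fis1 and Bnip3l and overlap for the other 8 genes.

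Within BAM15 several of these genes also differed by library number. When condition and number set were fitted together, 6 of the 10 differed between BAM15 libraries 4 to 6 and 1 to 3 at an adjusted p below 0.05 (edgeR), against 38.8% of all tested genes (18.6% higher and 20.2% lower in numbers 4 to 6). Opa1 (log2 difference −0.22, SE 0.08), Mfn1 (−0.26, SE 0.09), Dnm1l (−0.28, SE 0.08) and Fis1 (−0.28, SE 0.07) were lower in numbers 4 to 6. Mff (0.23, SE 0.09) and Fundc1 (0.38, SE 0.11) were higher there. Means of normalized counts in vehicle 1 to 3, vehicle 4 to 6, BAM15 1 to 3 and BAM15 4 to 6 were 1309, 1264, 1342 and 1105 for Dnm1l, and 525, 539, 362 and 471 for Fundc1. With scaling by library size alone, which moved the median difference over all genes from −0.06 to 0.05, only the 2 higher genes, Mff and Fundc1, differed, and the 4 lower calls were lost, with 33.1% of all tested genes called under that scaling. Between vehicle libraries of the same numbers, 0 of the 10 genes differed in edgeR, and 0 had an unadjusted p below 0.05. Over all tested genes that contrast also gave 0 calls, with 5.47% at an unadjusted p below 0.05.

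**Figure D3:**
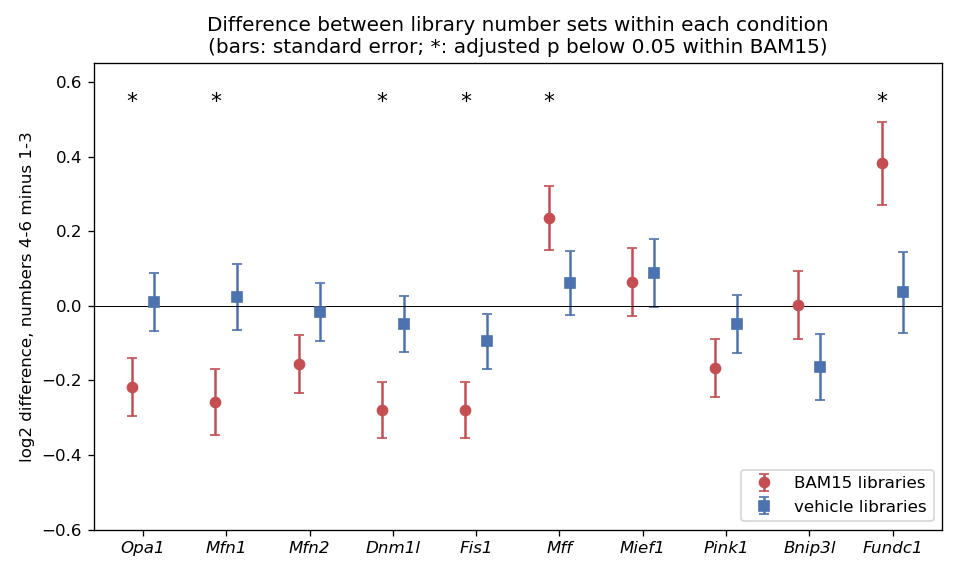
Points give the log2 difference between libraries 4 to 6 and 1 to 3 within BAM15 (red circles) and within vehicle (blue squares), with the standard error as bars and a star where the adjusted p within BAM15 was below 0.05. The BAM15 differences run from −0.28 (Fis1) to 0.38 (Fundc1), and those within vehicle are nearer to 0 for 8 of the 10 genes.

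The changes were also read within each number set. For Opa1 the change in numbers 1 to 3 was 0.22 on the log2 scale (edgeR adjusted p = 0.0122), against −0.01 in numbers 4 to 6 (0.919). For Mfn1 these values were 0.08 and −0.21, for Dnm1l 0.03 and −0.20, and for Mff −0.02 and 0.15. None of these reached an adjusted p of 0.01 in either set. The change of Fis1 kept its direction and its call in both, with −0.40 (adjusted p = 5.68e-05) in numbers 1 to 3 and −0.59 (adjusted p = 8.05e-05) in numbers 4 to 6 (edgeR). In all, 6 of the 10 genes had the same sign in both sets. Conditions did not overlap for 5 of the 10 genes within numbers 1 to 3, against 61.9% of all genes tested there, and for 5 within numbers 4 to 6, against 56.5%. The test of the difference between the 2 changes gave 0 of 10 genes at an adjusted p below 0.05 (edgeR), against 2.66% of all tested genes. At an unadjusted p below 0.05 it gave 3 of 10 (edgeR). The share of all tested genes at that unadjusted threshold is not given here, so this count has no background to be set against. What sets numbers 4 to 6 apart was not tested, and the labels name no batch.

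By the root mean square difference of centred log2 CPM over the 12 libraries, the genes most like Fis1 among 10470 with a mean above 50 were Lmna (0.04), Gnai2 (0.05) and Bicd2 (0.05), with log2 fold changes of −0.46, −0.46 and −0.44. This measure includes the difference between conditions, so similar fold changes are built into it. Among the 10 genes themselves, the closest pair by the same measure was Mfn2 and Pink1 (0.09). Bnip3l was nearer to Fis1 (0.18) and to Fundc1 (0.19) than to any other of the 10.

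The wider machinery was read from 52 other genes listed by role, also with earlier results of these data known. Of these 50 were in the table (not Pld6 or Calcoco2) and 49 were tested. Gdap1 was too low, with 2 to 11 counts in BAM15 and 7 to 14 in vehicle libraries. Of the 49, 9 were called higher and 8 lower, 34.7% against 42.3% of all tested genes, and with scaling by library size alone 7 were higher and 14 lower. Their median log2 fold change was 0.02, as was that of all tested genes. Within BAM15, 21 of the 49 differed between libraries 4 to 6 and 1 to 3 at an adjusted p below 0.05 (edgeR), against the 38.8% of all tested genes. The calls among the 6 genes listed as further receptors were lower, 3 of 6, and those among 6 adaptor and kinase genes of the ubiquitin route higher, 2 of 6. Over all tested genes 20.3% were called lower and 22% higher.

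All 6 genes listed as other receptors had negative log2 fold changes, and 3 of the 6 were called lower, with a list median of −0.43. Of all tested genes 47.8% had a negative log2 fold change and 20.3% were called lower. Phb2, which was listed with the inner membrane genes but whose product can also act as a mitophagy receptor, was called higher. Bnip3, which encodes the receptor most like NIX and is known as a gene of the hypoxic response, had 1140 to 1769 normalized counts with vehicle and 724 to 1059 after BAM15, without overlap. Its mean fell from 1370 ± 215 to 855 ± 131 (SD, n = 6), a log2 fold change of −0.68 (SE 0.11, edgeR, Benjamini-Hochberg adjusted p = 1.13e-04). Gm45507 has exons opposite 272 of its 400 most 3′ bases, and the strand used for counting is not given in the sources used here. Bnip3 was lower in BAM15 libraries 4 to 6 than in 1 to 3 (log2 difference −0.32, edgeR adjusted p = 0.0222), and its change was −0.67 in numbers 1 to 3 and −0.71 in numbers 4 to 6. Bcl2l13, a BCL2-like outer membrane receptor, fell from 897 ± 39.2 to 598 ± 44.0, a log2 fold change of −0.59 (SE 0.06, adjusted p = 9.72e-07, edgeR), and Bid has exons opposite 115 of its 400 most 3′ bases. Nipsnap1, whose product marks damaged mitochondria for adaptors, was scarce and fell from 39.2 ± 5.13 to 23.2 ± 6.62 (log2 fold change −0.75, SE 0.19, adjusted p = 3.44e-03, edgeR). Its call was lost within numbers 1 to 3 (adjusted p = 0.0148) and within numbers 4 to 6 (0.0675).

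Of 6 tested adaptor and kinase genes of the ubiquitin route, Sqstm1 and Optn were called higher, against 22% of all tested genes. The other 4 were not called. The log2 fold change was positive for 4 of the 6 and negative for 2. All 6 differed between BAM15 libraries 4 to 6 and 1 to 3 at an adjusted p below 0.05 (edgeR), against 38.8% of all tested genes. Within numbers 1 to 3, Ulk1 (−0.63, adjusted p = 2.48e-06) and Tbk1 (−0.55, 1.38e-03) were lower and Tax1bp1 (0.21, 3.41e-03) was higher (edgeR). Within numbers 4 to 6 their changes were −0.20, 0.13 and 0.09, and none was called. Sqstm1 encodes p62, which links ubiquitin to the autophagosome. It had 7686 to 8560 normalized counts with vehicle and 20618 to 26096 after BAM15, far apart in every library. The mean rose from 8073 ± 301 to 23711 ± 2403 (SD, n = 6), a log2 fold change of 1.55 (SE 0.07, edgeR, Benjamini-Hochberg adjusted p = 7.29e-11), and it was the single one of the 49 genes past the 3 thresholds of the study. Mrnip has exons opposite 230 of its 400 most 3′ bases. Sqstm1 was lower in BAM15 libraries 4 to 6 than in 1 to 3 (log2 difference −0.26, edgeR adjusted p = 0.00192), with a change of 1.64 in numbers 1 to 3 and 1.44 in numbers 4 to 6. Optn, which encodes the adaptor optineurin, had 276 to 374 normalized counts with vehicle and 429 to 703 after BAM15. Its mean rose from 316 ± 33.7 to 582 ± 119 (log2 fold change 0.88, SE 0.13, adjusted p = 2.80e-05, edgeR). It was higher in BAM15 libraries 1 to 3 than in 4 to 6 (log2 difference −0.53 for 4 to 6 minus 1 to 3, adjusted p = 5.57e-04, edgeR), with changes of 1.02 in numbers 1 to 3 and 0.69 in numbers 4 to 6.

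Of 12 genes of the PINK1 and ubiquitin route, 3 were called higher and 1 lower, against 22% and 20.3% of all tested genes. Fbxo7, whose product is an F-box protein that takes part in mitophagy, rose from 269 ± 39.0 to 426 ± 23.1 (log2 fold change 0.66, SE 0.09, adjusted p = 1.72e-05, edgeR). Parl, the inner membrane protease that cleaves PINK1 in healthy mitochondria, had a log2 fold change of 0.35 (SE 0.06, adjusted p = 1.47e-04, edgeR), and 17.7% of the stretches of 50 bases near its 3′ end also occur in Gm13181. Marchf5, listed as March5, encodes an outer membrane ubiquitin ligase that acts on fission and fusion proteins, and rose by 0.27 on the log2 scale (SE 0.06, adjusted p = 9.70e-04, edgeR). Vcp, the segregase that pulls ubiquitinated proteins from membranes, was lower in all 6 BAM15 libraries than in any vehicle library (log2 fold change −0.24, SE 0.05, adjusted p = 4.09e-04, edgeR).

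Of 10 tested fission partners, 2 were called higher and 3 lower, against 22% and 20.3% of all tested genes. Tbc1d15, a partner of FIS1 at the outer membrane, rose from 945.0 ± 41.8 to 1528 ± 96.8 (SD, n = 6), without overlap (log2 fold change 0.69, SE 0.06, adjusted p = 6.33e-08, edgeR), beside the fall of Fis1 itself. Dnm2, a dynamin known best from endocytosis, had a log2 fold change of 0.30 (SE 0.05, adjusted p = 3.01e-04, edgeR). Spire1, whose mitochondrial form assembles actin at fission sites, fell by 0.46 on the log2 scale (SE 0.08, adjusted p = 2.15e-04, edgeR). Mtfr2 fell from 43.8 ± 12.01 to 17.1 ± 5.90 (log2 fold change −1.35, SE 0.25, adjusted p = 3.20e-04, edgeR), the largest decrease of the 49 genes, with a mean count below 50. The markers of proliferating myoblasts Mki67, Top2a and Ccna2 were lower in the same libraries, as given above, and their part in this decrease was not tested. Inf2 was also called lower (log2 fold change −0.37, SE 0.08, adjusted p = 7.02e-04, edgeR). It ranked below the 4 called genes above by p-value and so is not among the named genes. Mief2, which encodes MiD49, the counterpart of the MiD51 of Mief1, was not called (log2 fold change −0.19, SE 0.07, adjusted p = 0.0243, edgeR).

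Of 11 tested genes that process OPA1 or aid fusion, 2 were called higher, against 22% of all tested genes, and 9 were not called. Afg3l2, a subunit of the matrix-facing AAA protease, rose from 577 ± 64.1 to 815 ± 148 (log2 fold change 0.50, SE 0.11, adjusted p = 1.45e-03, edgeR), although its highest vehicle library (701) lay above its lowest BAM15 library (660.1). Afg3l2 was higher in BAM15 libraries 4 to 6 than in 1 to 3 (log2 difference 0.44, edgeR adjusted p = 0.00180), with a change of 0.35 in numbers 1 to 3 and 0.60 in numbers 4 to 6. Phb2, a prohibitin of the inner membrane, rose from 2962 ± 88.8 to 3485 ± 238 (log2 fold change 0.23, SE 0.05, adjusted p = 1.66e-03, edgeR). With scaling by library size alone the adjusted p in edgeR was 0.0365 for Phb2 and 0.0210 for Marchf5, so both calls were lost. With numbers 4 to 6 only, 8 of the named genes kept their direction and were not called, with adjusted p from 0.01002 (Parl) to 0.0675 (Nipsnap1) in edgeR. Of these the log2 fold change was at least as large as over all libraries for Phb2 (0.26), Vcp (−0.26) and Marchf5 (0.30). It was smaller for Parl (0.30), Spire1 (−0.40), Nipsnap1 (−0.69), Dnm2 (0.20) and Mtfr2 (−0.94). Oma1, the protease that cuts OPA1 when membrane potential falls, had 220 to 254 normalized counts with vehicle and 217 to 253 after BAM15 (log2 fold change −0.06, SE 0.07, adjusted p = 0.484, edgeR). Of 4 genes that move mitochondria along microtubules, Trak1, which encodes a motor adaptor, was lower (log2 fold change −0.34, SE 0.06, adjusted p = 2.85e-04, edgeR) and the other 3 were not called. A share of 20.3% of all tested genes was called lower.

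**Figure D4:**
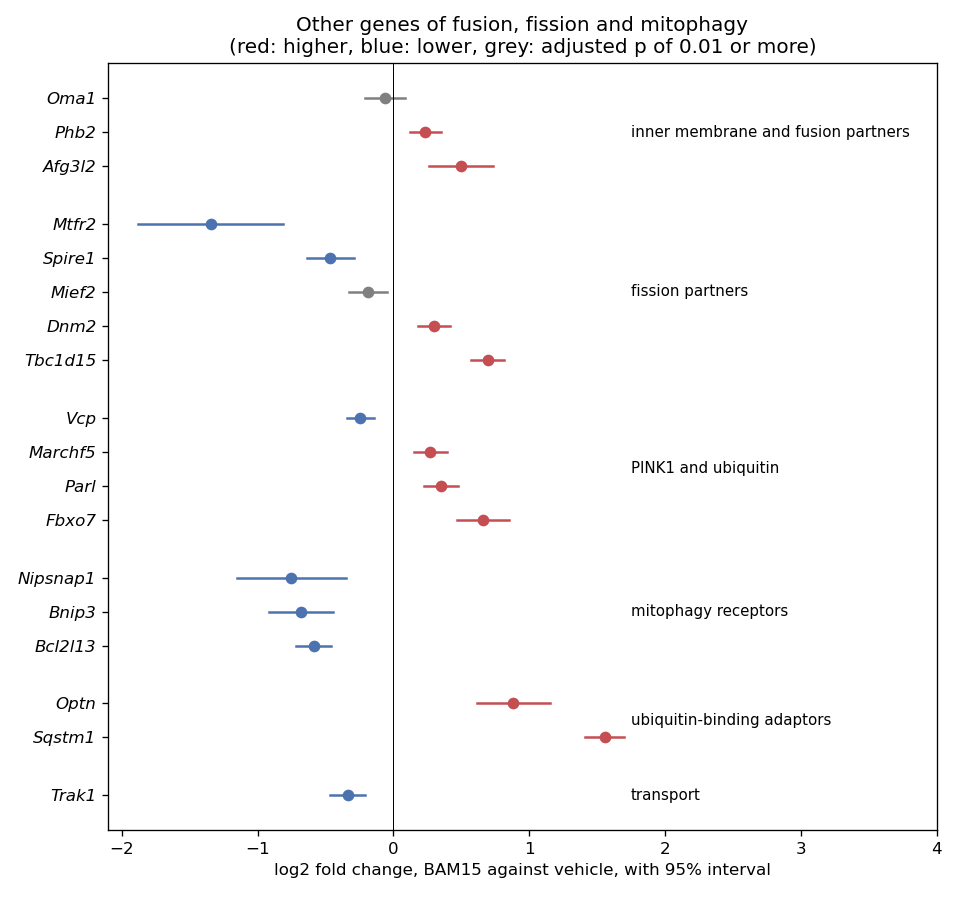
Points give the log2 fold change between BAM15 and vehicle of the named genes outside the 10, with the 95% interval, grouped by role. The 3 receptor genes lie left of 0, between −0.75 (Nipsnap1) and −0.59 (Bcl2l13), and the 2 adaptor genes right of 0, at 0.88 (Optn) and 1.55 (Sqstm1).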

How the data were processed

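The authors prepared 3′ QuantSeq libraries, aligned reads with BlueBee software and deposited counts per Ensembl gene, which were used here as whole numbers without normalization. Per the labels the build is GRCm38 (mm10) and DESeq2 1.22.2 was used; the aligner and strand are not given in the sources used here. The authors also deposited a normalized signal, which equals the counts over a library-wise size factor (0.836 to 1.07) and supplied gene symbols here. A further 11 columns of both tables belong to samples outside these labels and were not used.

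Counts were analysed in R 4.3.3 with edgeR 4.0.16: filterByExpr left 12730 genes, TMM factors were 0.932 to 1.04, and a robust quasi-likelihood fit had the condition as its only term. The standard error is the log2 fold change divided by the square root of F. Alternatives used DESeq2 1.42.0, limma 3.58.1 (voom), other scalings and filters, blocks, and fewer libraries, and the number sets were compared in a fit of 4 groups. Tests were checked on simulated data. Positions come from GENCODE M21. The 10 genes and all lists were chosen with earlier results of these data known. Named were the 10 genes, up to 4 called genes per role by p-value, and Bnip3, Sqstm1, Oma1 and Mief2. One further gene of the rule is not reported here.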

Additional observations from a re-analysis of the deposited data

Results flagged for a closer look

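In each condition the 6 normalized counts of 29 genes were searched for a library far from the rest by Dixon's criterion, which chance meets in about 1 of 20 groups, and 4 of 58 groups met it. None of these was among the 10 genes. Vehicle library 4 was far above the other vehicle libraries for Afg3l2 (701, the next 578) and far below them for Oma1 (219.8, the next 252). Vehicle library 6 was highest for Bcl2l13 (969.8, the next 898). BAM15 library 5 was lowest for Vcp (9474, the next 10209).

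The change between BAM15 and vehicle differed between library numbers 4 to 6 and 1 to 3 for 2 of the 49 other genes of the machinery, against 2.66% of all tested genes, and both were picked out after their values were seen. For Pgam5, a mitochondrial phosphatase, the difference of the log2 fold changes was 0.60 (adjusted p = 0.0442, edgeR), from −0.21 in numbers 1 to 3 to 0.38 in numbers 4 to 6. For Nbr1, a ubiquitin-binding adaptor, it was 0.86 (adjusted p = 0.0488, edgeR), from −0.32 to 0.53.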

How the results depend on the processing

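With each library left out in turn, 0 of the 10 genes were called higher and 2 to 3 lower, 2 to 3 did not overlap between conditions, 0 passed the 3 thresholds, and of the other genes 9 to 11 were called higher and 8 to 13 lower, the 13 without BAM15 library 6. The other genes called lower numbered 14 with scaling by library size alone, 14 with a block for the number set and 15 at an adjusted p below 0.05, a threshold at which 1 of the 10 genes, Mief1, was higher. Apart from that threshold (54.1% of all tested genes), the share of all genes called under these settings is not given here. Scaling by library size alone left 2 of the 10 genes that differed between BAM15 libraries 4 to 6 and 1 to 3, against 33.1% of all tested genes. With numbers 4 to 6 only, 1 of the 10 (Fis1) was called lower, and with numbers 1 to 3 only, Fis1, Bnip3l and Fundc1 were. The shares of all genes called in these fits of fewer libraries are not given here. Within either number set 5 of the 10 did not overlap, with 3 libraries against 3, where 61.9% (numbers 1 to 3) and 56.5% (numbers 4 to 6) of all genes tested were separate. Signs turned for Mfn1 (0.078), Dnm1l (0.032) and Mff (−0.017) within numbers 1 to 3 and for Opa1 (−0.013) within numbers 4 to 6, none of them called, and the cause was not tested.

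The libraries share numbers 1 to 6, but deviations from the group means correlated over 0.1 in only 4 of 6 same-numbered pairs (−0.08 to 0.31, across genes). Only 2 BAM15 libraries were closest to their own number, so pairing by single number is not shown. By number set, BAM15 libraries 1 to 3 were each closest to vehicle library 3 (0.29, 0.36 and 0.31). BAM15 libraries 4 to 6 were each closest to vehicle library 6 (0.19, 0.33 and 0.28). Vehicle libraries 1, 3, 4 and 6 correlated negatively with BAM15 libraries of the other set (−0.38 to −0.12). The correlations of vehicle libraries 2 and 5 were of mixed sign. With the replicate block, 0 of the 10 genes were higher and 3 lower, and of the other genes 10 were higher and 11 lower. The share of all tested genes called with this block is not given here. The 10 genes had mean counts of 447 or more and standard errors of 0.11 or less, while Mtfr2 and Nipsnap1 had mean counts under 50. The part of depth in these errors was not tested.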
